A study of Homo sapiens with 6 samples.

Results

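Epithelial cells hold together through junctions, and the genes described here encode the parts of those junctions and the keratin filaments anchored to them. They are the rows of the expression table whose symbol begins with CTNNA, CTNNB or CTNND, or with CLDN, KRT, CDH, TJP, PKP, DSC or DSG and a digit, together with DSP, JUP, OCLN, F11R, CGN, EPCAM, MARVELD2, MARVELD3 and ESRP2, in all 42 of 11456 genes. The symbols VIM, ESRP1 and GRHL2 were also sought but had no row, so they were not analysed here. The symbol rule also takes in 3 genes that are not structural parts of a junction: CTNNBIP1, an inhibitor of beta-catenin, CTNNAL1, a relative of alpha-catenin, and CTNNBL1, a nuclear protein with armadillo-like repeats.

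The cells were HepG2-hCAR, a single-cell clone of HepG2, a line from a human liver cancer. The clone was selected with puromycin after infection with a lentivirus (vector pCW57-GFP-2A-MCS) whose doxycycline-driven cDNA encodes human CAR, the constitutive androstane receptor (gene NR1I3). Polyadenylated RNA was sequenced from 3 libraries of cells given doxycycline at 1 µg/ml for 72 h and from 3 libraries of cells given vehicle for 72 h. Both groups carry the cDNA and derive from that 1 clone. Doxycycline-treated cells lacking the cDNA were not analysed here, and what doxycycline does by itself cannot be told apart from what CAR does. The labels call the samples triplicates without saying whether they were separate cultures, and each p-value therefore reflects library-to-library spread alone, which may be technical.

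NR1I3 was at 331, 317 and 316 FPKM in the doxycycline libraries, against 3.15, 3.01 and 3.56 FPKM in the vehicle libraries. FPKM, which counts fragments per length of transcript and scales them to the mapped fragments of the library, is a relative level, and the depth behind it is unknown because only scaled values were used. The summed FPKM of the 11461 entries was 205626 to 208884 in doxycycline libraries and 204318 to 209372 in vehicle libraries. Of 8 hepatocyte markers all had a row and 6 fell (75.0%). In the test described below 13.6% of all tested genes were called lower. The summed level of the 8 markers was 708 to 733 FPKM in doxycycline libraries and 1420 to 1562 FPKM in vehicle libraries. ALB, albumin, which is among the 6, was low throughout. It was at 0.387, 0.461 and 0.272 FPKM in doxycycline libraries and 1.77, 1.90 and 1.93 FPKM in vehicle libraries. APOB, another of the 8, was at 444 ± 41.7 FPKM with doxycycline and 819 ± 23.6 FPKM with vehicle, and why ALB was so low was not tested. No gene of the table has a larger group mean under 0.5 FPKM, so ALB is listed only through its vehicle values and its fall supports nothing. Of the markers of other cells 5 of 8 for bile duct cells had a row, 3 of 10 for fibroblasts and stellate cells (COL1A1, COL1A2 and COL3A1 had none), 1 of 9 for squamous epithelium (KRT10), 2 of 5 for leukocytes (PTPRC had none) and 0 of 6 for endothelium. The summed level of the bile duct list, which shares KRT19 and EPCAM with the genes described here, was 352 to 367 FPKM in doxycycline libraries and 408 to 427 FPKM in vehicle libraries, and that of the fibroblast list was 23.6 to 26.2 FPKM in doxycycline libraries and 21.6 to 22.7 FPKM in vehicle libraries. The leukocyte list summed to 6.28 to 7.49 FPKM in doxycycline libraries and 8.42 to 8.80 FPKM in vehicle libraries, but its 2 genes moved apart. CD68 fell, at 5.08 ± 0.618 FPKM with doxycycline and 8.50 ± 0.211 FPKM with vehicle, whereas CD14, below the filter of the test, was at 1.85, 1.91 and 2.00 FPKM with doxycycline, against 0.0853, 0.0347 and 0.0533 FPKM with vehicle. CD14 is listed only through its doxycycline values, so its difference supports nothing. The part of these markers in the results below was not tested, and in RNA from whole cultures fewer cells of a kind and less RNA per cell cannot be told apart.

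Adherens junctions are built from cadherins, which bind the same protein on the neighbouring cell, and from catenins, which tie the cadherin tails to actin. Desmosomes use their own cadherins, the desmogleins and desmocollins, and link through plakoglobin, plakophilins and desmoplakin to keratin filaments. Tight junctions seal the space between cells with claudins and occludin, held by the scaffold proteins of the TJP family; in the liver they separate bile from blood. Hepatocytes make the simple-epithelial pair KRT8 and KRT18, while KRT19 is a marker of bile duct and progenitor cells.

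Of the 42 genes, 37 had a mean of at least 1 FPKM over the 6 libraries and were tested with limma on log2(FPKM + 1), two-sided, with Benjamini-Hochberg adjustment over all 10469 genes tested. At an adjusted p below 0.05, 20 of the 37 (54.1%) were called, 6 higher and 14 lower with doxycycline. Among the called genes, CLDN19 (mean 0.894 FPKM with doxycycline) and KRT80 (mean 0.902 FPKM with vehicle) passed the filter only through the group where they are high. Over all genes tested 28.8% were called, 15.2% higher and 13.6% lower. Among genes with a mean of at least 5 FPKM the called share was 60.0% of 30 junction and keratin genes and 32.6% of all 6469. The median log2 fold change, doxycycline minus vehicle, was -0.13 for the 37 genes and 0.01 for all genes tested. In 22 of the 37 the 3 values of a group lay wholly above or below those of the other, a pattern that 47.1% of all tested genes showed.

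**Figure D1:**
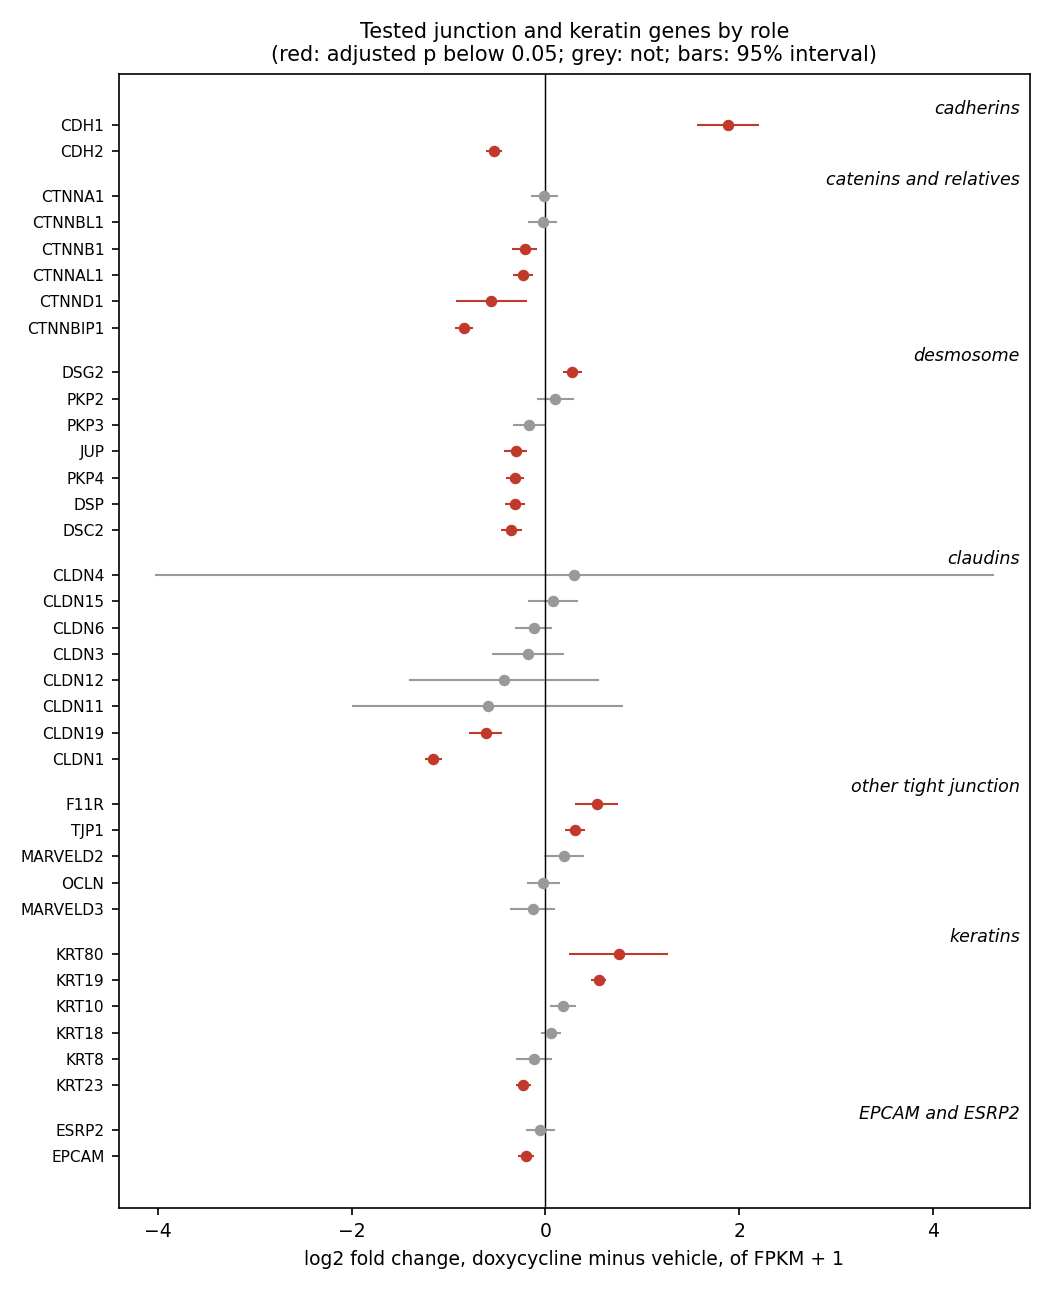
Log2 fold change of FPKM + 1, doxycycline minus vehicle (horizontal axis), with its 95% interval from limma, for the tested genes reported here, grouped by role; red points passed an adjusted p of 0.05 and grey points did not. CDH1 stands farthest to the right at 1.88 and CLDN1 farthest to the left at -1.15, and the interval of CLDN4 runs from -4.03 to 4.63.

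The genes ranged widely in level. Over all 6 libraries 8 had a mean of at least 50 FPKM, 13 a mean of 10 to 50, 16 a mean of 1 to 10 and 5 a mean below 1. FPKM is scaled to transcript length, so levels of different genes can be set beside each other. In the doxycycline libraries the highest mean levels were those of KRT19 (134 FPKM), KRT18 (129 FPKM), DSP (96.1 FPKM), KRT8 (91.0 FPKM) and EPCAM (73.2 FPKM), and neighbours in this order overlapped except KRT18 with DSP and KRT8 with EPCAM. In the vehicle libraries the order was KRT18 (124 FPKM), DSP (119 FPKM), KRT8 (99.1 FPKM), KRT19 (90.8 FPKM) and EPCAM (84.2 FPKM), and neighbours overlapped except DSP with KRT8. CLDN1 held rank 12 of the 42 by mean level with doxycycline and rank 8 with vehicle.

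The cadherins changed in opposite directions. CDH1, E-cadherin, the classical cadherin of epithelia (chromosome 16, 68771128 to 68869451, plus strand, GRCh37), was at 8.50, 12.1 and 11.6 FPKM in the doxycycline libraries, against 2.26, 2.26 and 1.94 FPKM in the vehicle libraries. Every doxycycline library was above every vehicle library, and the mean level was 4.98-fold higher (log2 fold change 1.88, SE 0.13, adjusted p = 2.27e-04, limma). CDH2, N-cadherin, which hepatocytes make beside E-cadherin (chromosome 18, 25530930 to 25757410, minus strand), was at 23.5, 24.1 and 23.4 FPKM with doxycycline, against 33.5, 35.3 and 35.0 FPKM with vehicle. It fell in all 3 doxycycline libraries relative to vehicle (log2 fold change -0.53, SE 0.03, adjusted p = 1.41e-04). CDH2 remained the more abundant transcript in every library: CDH1 made up 26.5%, 33.4% and 33.2% of the summed CDH1 and CDH2 FPKM with doxycycline, against 6.33%, 6.02% and 5.26% with vehicle. The sum of the pair was 32.0, 36.2 and 35.0 FPKM with doxycycline and 35.8, 37.5 and 37.0 FPKM with vehicle, so the sums of the groups overlapped.

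The other cadherins were at low levels and below the filter of the test. CDH16, a cadherin known from kidney, was at 0.0647, 0.157 and 0.226 FPKM with doxycycline and 0.731, 0.678 and 0.669 FPKM with vehicle, lower in all 3 doxycycline libraries. CDH24, a classical-type cadherin that binds catenins, was at 1.20, 1.39 and 1.44 FPKM with doxycycline and 0.616, 0.430 and 0.523 FPKM with vehicle, higher in all 3 doxycycline libraries. The table holds no gene whose larger group mean is under 0.5 FPKM, so CDH16 is in it only through its vehicle values.

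Catenins fell or did not pass the test. Of 6 catenins and relatives 4 fell and 0 rose (66.7% called, against 28.8% of all genes). The 4 include CTNNBIP1 and CTNNAL1, which are not structural parts of a junction. The summed level of the 6 genes was 214, 211 and 205 FPKM with doxycycline, against 251, 258 and 262 FPKM with vehicle. The largest change was in CTNNBIP1, which binds beta-catenin and keeps it from TCF transcription factors (chromosome 1, 9908334 to 9970394, minus strand, GRCh37). It was at 18.0, 18.6 and 18.3 FPKM with doxycycline, against 34.6, 34.1 and 32.2 FPKM with vehicle, with no overlap (log2 fold change -0.84, SE 0.04, adjusted p = 4.25e-05). CTNNB1, beta-catenin itself (chromosome 3, 41236328 to 41301587, plus strand), was at 49.9, 51.5 and 47.3 FPKM with doxycycline, against 61.6, 55.7 and 55.7 FPKM with vehicle (log2 fold change -0.21, adjusted p = 0.0283). The FPKM of CTNNB1 per FPKM of CTNNBIP1 was therefore higher with doxycycline, at 2.77, 2.77 and 2.59, against 1.78, 1.63 and 1.73 with vehicle. The call of CTNNB1 ended without doxycycline replicate 1 (adjusted p = 0.0705) or 3 (0.0794) and without vehicle replicate 1 (0.0511).

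CTNND1, p120-catenin, which holds cadherins at the membrane, was at 23.3, 18.9 and 23.6 FPKM with doxycycline, against 26.7, 33.2 and 39.1 FPKM with vehicle. Its groups did not overlap but its vehicle values were spread widely (log2 fold change -0.56, SE 0.15, adjusted p = 0.0388). That call of CTNND1 ended without any 1 of the doxycycline replicates (adjusted p = 0.0743, 0.103 and 0.0687) and without vehicle replicate 2 (0.101) or 3 (0.0829). CTNNAL1 fell, at 69.0 ± 3.33 FPKM with doxycycline and 81.0 ± 1.77 FPKM with vehicle (mean ± SD over 3 libraries of each group, here and wherever ± is used). CTNNA1, alpha-catenin, the actin-binding catenin, was at 29.8 ± 1.33 FPKM with doxycycline and 30.0 ± 1.97 FPKM with vehicle, and the 95% interval of its log2 fold change ran from -0.15 to 0.13. CTNNBL1 was at 21.4 ± 1.80 FPKM with doxycycline and 21.8 ± 0.322 FPKM with vehicle, with an interval from -0.18 to 0.12.

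The promoters of 25 of the 42 genes, 37 sequences of 300 bases that run from 250 bases before to 50 after an annotated start, were taken from RefSeq on GRCh38.p14, a build other than that of the expression table. Each was searched on both strands for CACCTG (reverse complement CAGGTG), the E-box bound by the SNAI and ZEB repressors of CDH1, and for AGGTCA (reverse complement TGACCT), the half-site of nuclear receptors. CDH1 itself, KRT19 and F11R are not among the 25 genes, so their promoters were not searched. AGGTCA can share its last 2 bases with a following CACCTG. The E-box letters were in 9 of the 37 promoters (24.3%) and in 20.6% of all 35116 promoters of that length, and the half-site letters were in 6 of 37 (16.2%) and in 13.8% of all. The promoter of CTNNBIP1 (chr1:9910220-9910519, minus strand), shown because it is the catenin partner with the largest change, holds neither motif.
CTNNBIP1: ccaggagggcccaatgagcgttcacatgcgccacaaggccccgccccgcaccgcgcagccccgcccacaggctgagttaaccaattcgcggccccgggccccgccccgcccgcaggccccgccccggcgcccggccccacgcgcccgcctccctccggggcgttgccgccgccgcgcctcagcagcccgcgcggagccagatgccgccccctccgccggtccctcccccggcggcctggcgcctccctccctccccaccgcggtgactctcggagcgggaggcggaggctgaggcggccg

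In desmosomes DSG2 rose and 4 of the other 6 genes fell (71.4% of the 7 called, against 28.8% of all genes). DSG2, desmoglein 2, the desmosomal cadherin of simple epithelia (chromosome 18, 29078006 to 29128971, plus strand, GRCh37), was at 47.9, 47.1 and 46.7 FPKM with doxycycline, against 36.7, 39.8 and 39.8 FPKM with vehicle (log2 fold change 0.28, SE 0.04, adjusted p = 3.58e-03). Its partner DSC2, desmocollin 2 (chromosome 18, 28638806 to 28682378, minus strand), was at 5.30, 5.40 and 5.01 FPKM with doxycycline, against 7.09, 6.999 and 6.76 FPKM with vehicle (log2 fold change -0.35, SE 0.05, adjusted p = 2.62e-03). The groups overlapped for neither gene, although they lie 395.6 kb apart in the same cluster of desmosomal cadherins, and the FPKM of DSG2 per FPKM of DSC2 was 9.02, 8.72 and 9.32 with doxycycline against 5.17, 5.68 and 5.89 with vehicle. Their promoters are shown because the neighbours changed in opposite directions. The second of the 2 DSC2 promoters in the table (chr18:31101211-31101510, minus strand) holds neither motif and is not shown. DSG2 (chr18:31497927-31498226, plus strand) holds 2 E-box matches, in capitals below. The first DSC2 promoter (chr18:31102372-31102671, minus strand) holds 1 E-box match and 1 half-site match, also in capitals.
DSG2: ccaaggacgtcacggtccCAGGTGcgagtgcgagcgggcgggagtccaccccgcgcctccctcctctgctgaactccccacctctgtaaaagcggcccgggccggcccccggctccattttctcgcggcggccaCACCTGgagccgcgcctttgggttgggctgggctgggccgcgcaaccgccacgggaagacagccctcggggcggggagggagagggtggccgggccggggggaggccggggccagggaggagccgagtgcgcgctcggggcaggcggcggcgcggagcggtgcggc
DSC2: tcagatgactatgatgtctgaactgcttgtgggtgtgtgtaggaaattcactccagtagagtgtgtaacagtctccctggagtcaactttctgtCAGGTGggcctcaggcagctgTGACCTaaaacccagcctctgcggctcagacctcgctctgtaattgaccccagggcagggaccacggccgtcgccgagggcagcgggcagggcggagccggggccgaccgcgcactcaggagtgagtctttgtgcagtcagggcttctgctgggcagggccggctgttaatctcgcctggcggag

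Of the 5 plaque genes, whose proteins lie between the desmosomal cadherins and keratin, DSP, JUP and PKP4 fell and PKP2 and PKP3 did not pass the test. DSP, desmoplakin, the keratin anchor (chromosome 6, 7541808 to 7586950), was at 98.8, 98.7 and 90.8 FPKM with doxycycline, against 116, 123 and 119 FPKM with vehicle. No doxycycline library reached the vehicle range (log2 fold change -0.31, SE 0.04, adjusted p = 3.14e-03). JUP, plakoglobin, which serves in desmosomes and adherens junctions, was at 7.98, 7.73 and 7.81 FPKM with doxycycline, against 9.83, 10.5 and 9.48 FPKM with vehicle. JUP too was lower in every doxycycline library (log2 fold change -0.31, adjusted p = 5.22e-03). PKP4, a plakophilin-related armadillo protein found at adherens junctions as well, was at 16.2, 14.9 and 15.2 FPKM with doxycycline, against 19.1, 19.4 and 19.6 FPKM with vehicle, again without overlap (log2 fold change -0.31, adjusted p = 2.41e-03).

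PKP2 and PKP3 are the plakophilins proper, which bind desmoplakin. PKP2 was at 10.2 ± 1.16 FPKM with doxycycline and 9.35 ± 0.351 FPKM with vehicle, with an interval of the log2 fold change from -0.09 to 0.30. PKP3 was at 12.9 ± 1.06 FPKM with doxycycline and 14.7 ± 0.678 FPKM with vehicle (adjusted p = 0.109), and without doxycycline replicate 3 it was called lower (adjusted p = 0.0495). The summed FPKM of the 7 desmosome genes was 198, 197 and 189 with doxycycline and 212, 224 and 219 with vehicle, so it was lower in every doxycycline library. Much of that sum is DSP, with a mean of 96.1 FPKM with doxycycline and 119 FPKM with vehicle. The mean of the sum was 195 FPKM with doxycycline and 219 FPKM with vehicle.

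**Figure D2:**
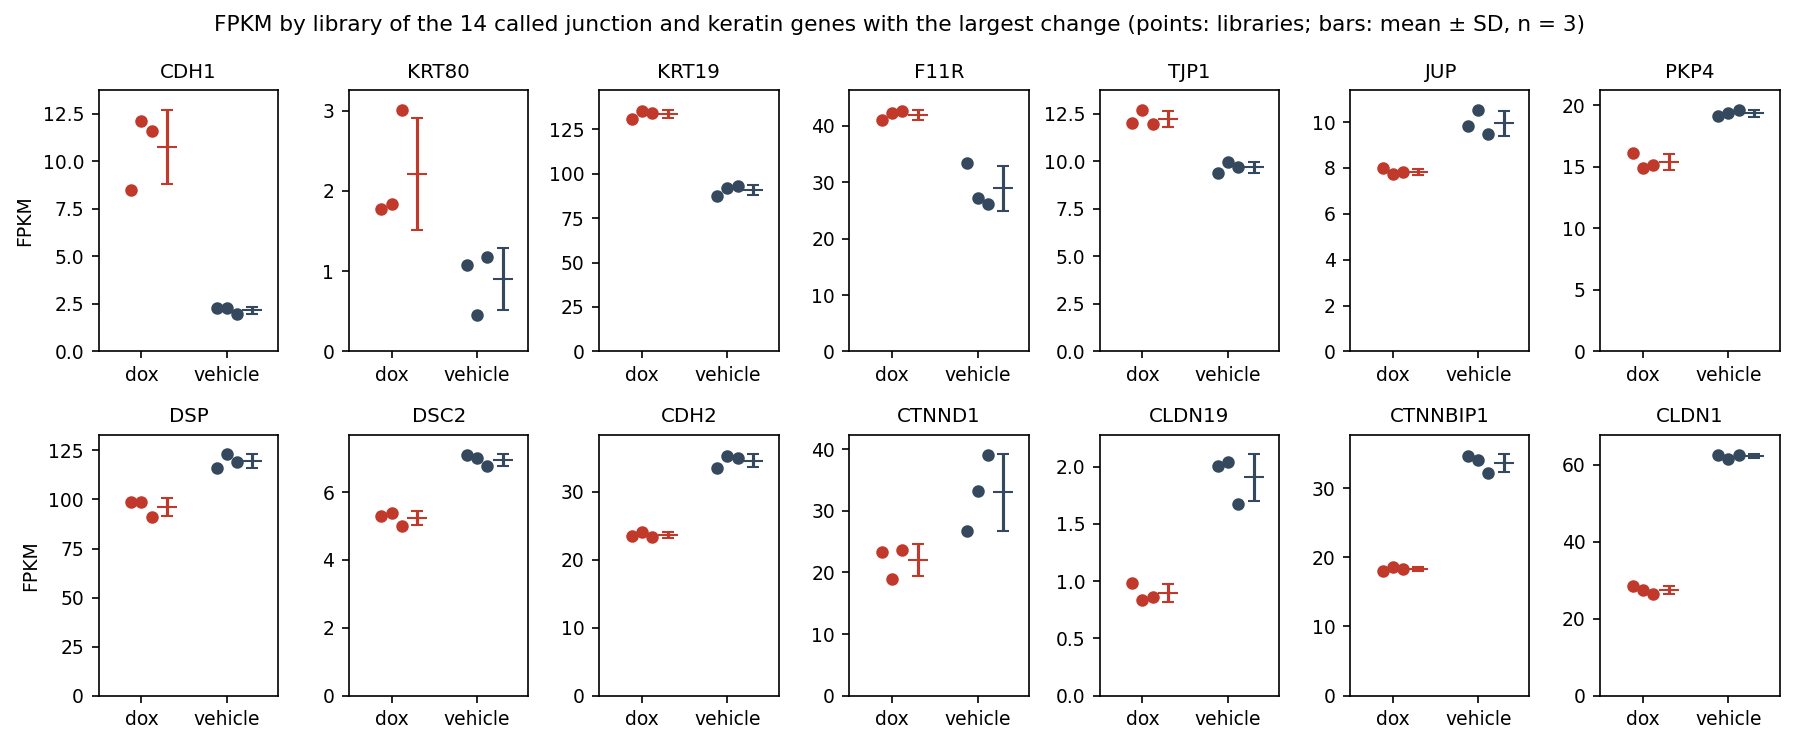
FPKM (vertical axis, from 0) in each of the 6 libraries for the 14 called junction and keratin genes with the largest absolute log2 fold change, doxycycline left in red and vehicle right in dark blue; bars give mean ± SD of 3 libraries. Panels run from CDH1, with 8.50 to 12.1 FPKM with doxycycline and 1.94 to 2.26 FPKM with vehicle, to CLDN1, with 26.3 to 28.5 FPKM with doxycycline and 61.6 to 62.7 FPKM with vehicle.

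Among claudins, the proteins that set which ions and molecules pass a tight junction, CLDN1 had the largest change. CLDN1, a sealing claudin of hepatocytes that also serves as an entry factor for hepatitis C virus (chromosome 3, 190023490 to 190040264, minus strand, GRCh37), was at 28.5, 27.4 and 26.3 FPKM with doxycycline, against 62.5, 61.6 and 62.7 FPKM with vehicle. The replicates of each group lay close together and the mean level with vehicle was 2.27 times that with doxycycline (log2 fold change -1.15, SE 0.04, adjusted p = 1.55e-05). Adjusted p values of CLDN1 stayed between 1.17e-05 and 1.23e-03 over the 13 alternatives. CLDN19, a claudin known from kidney and eye, was at 0.983, 0.837 and 0.864 FPKM with doxycycline, against 2.00, 2.04 and 1.67 FPKM with vehicle. It was the other called claudin, also without overlap (log2 fold change -0.62, SE 0.07, adjusted p = 1.62e-03). CLDN19 passed the filter of the test only through its vehicle values. The CLDN1 promoter (chr3:190322397-190322696, minus strand) is shown as that of the tested gene with the largest decrease on the log2(FPKM + 1) scale, and it holds neither motif.
CLDN1: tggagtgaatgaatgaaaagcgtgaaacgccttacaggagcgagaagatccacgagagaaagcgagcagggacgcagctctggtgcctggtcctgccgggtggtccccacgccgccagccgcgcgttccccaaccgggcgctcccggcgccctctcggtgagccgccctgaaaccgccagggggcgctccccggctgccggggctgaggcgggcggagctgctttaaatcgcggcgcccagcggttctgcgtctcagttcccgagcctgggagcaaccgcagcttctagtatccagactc

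The other claudins did not pass, and for 3 of them libraries of the same group differed widely. CLDN4, which limits sodium passage in several epithelia (chromosome 7, 73213872 to 73247023, plus strand), was at 35.4, 0.287 and 0.383 FPKM in doxycycline replicates 1, 2 and 3, against 25.1, 0.0988 and 0.210 FPKM in vehicle replicates 1, 2 and 3. Replicate 1 of each group held nearly all of its signal, and the 95% interval of its log2 fold change ran from -4.03 to 4.63. Its neighbour CLDN3, 29.3 kb away on the other strand, was at 6.25, 4.35 and 5.53 FPKM with doxycycline and 7.37, 5.15 and 6.12 FPKM with vehicle. CLDN3 had no split of that size, but its replicate 1 was highest and its replicate 2 lowest in both groups. CLDN11, the claudin of myelin and the testis, was at 0.903, 1.35 and 1.03 FPKM with doxycycline and 0.989, 7.32 and 0.895 FPKM with vehicle, so vehicle replicate 2 alone stood apart. CLDN12, which overlaps GTPBP10 on the same strand over 7.7 kb, was at 3.34, 10.7 and 5.75 FPKM with doxycycline and 10.6, 5.46 and 10.1 FPKM with vehicle, and its groups overlapped.

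A ratio of at least 5 between the highest and the lowest library of a group, computed on FPKM + 0.1, was rare in the table: 42 of 10469 tested genes (0.401%) reached it in the doxycycline group, CLDN4 among them, and 42 in the vehicle group, CLDN4 and CLDN11 among them. What sets these libraries apart at CLDN4 and CLDN11 was not tested. CLDN6, an oncofetal claudin, was at 3.22 ± 0.381 FPKM with doxycycline and 3.57 ± 0.163 FPKM with vehicle, and CLDN15, a pore-forming claudin of the gut, at 1.43 ± 0.135 FPKM with doxycycline and 1.31 ± 0.308 FPKM with vehicle. CLDN23 was below the filter, at 0.335 ± 0.141 FPKM with doxycycline and 0.501 ± 0.0398 FPKM with vehicle, and it is in the table only through its vehicle values. With CLDN4 left out, the summed claudin FPKM was 44.9, 49.1 and 45.1 with doxycycline, against 88.7, 86.7 and 87.2 with vehicle, and CLDN1 made up 55.8% to 63.6% of it with doxycycline and 70.5% to 71.9% with vehicle.

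**Figure D3:**
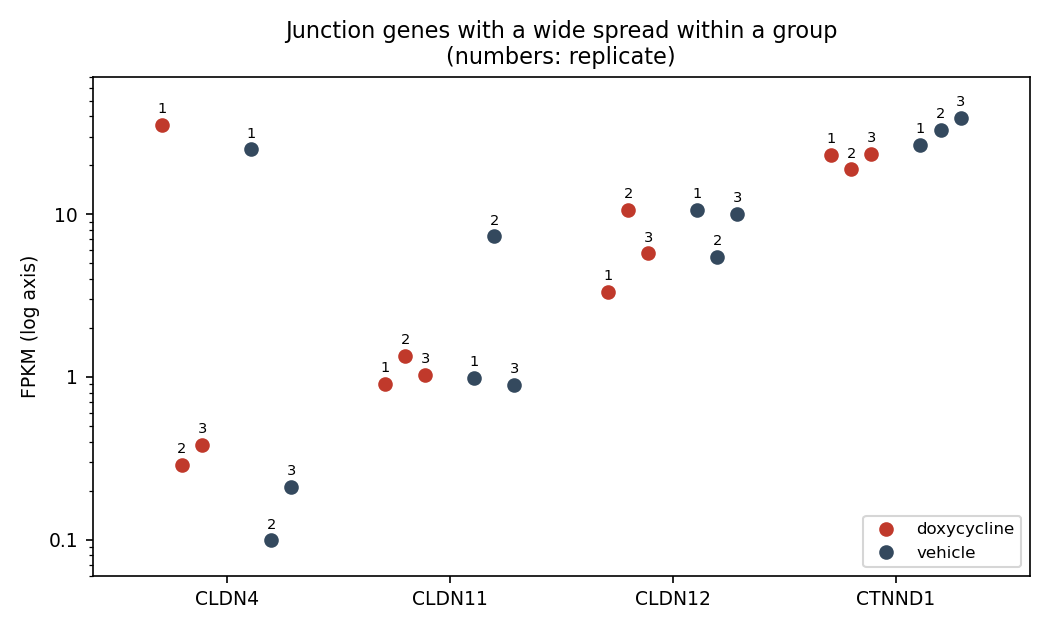
FPKM on a log axis of 4 junction genes whose libraries differed within a group, doxycycline left in red and vehicle right in dark blue, each point numbered by its replicate. CLDN4 reads 35.4 and 25.1 FPKM in replicate 1 of the doxycycline and vehicle groups and under 1 FPKM elsewhere, and CLDN11 reads 7.32 FPKM in vehicle replicate 2.

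Of the other tight junction genes F11R and TJP1 rose. F11R, the adhesion molecule JAM-A (chromosome 1, 160965001 to 160991138, minus strand), was at 40.9, 42.2 and 42.7 FPKM with doxycycline, against 33.4, 27.2 and 26.1 FPKM with vehicle. All doxycycline libraries were above the vehicle range (log2 fold change 0.53, SE 0.09, adjusted p = 7.56e-03). TJP1, the scaffold ZO-1 (chromosome 15, 29991571 to 30261068, minus strand), was at 12.001, 12.7 and 11.96 FPKM with doxycycline, against 9.39, 9.98 and 9.70 FPKM with vehicle (log2 fold change 0.31, SE 0.04, adjusted p = 3.37e-03). The groups of TJP1 did not overlap.

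OCLN, MARVELD2 and MARVELD3, the membrane proteins of the occludin family, did not pass the test. OCLN, occludin, was at 4.72, 3.93 and 4.34 FPKM with doxycycline, against 4.52, 4.16 and 4.56 FPKM with vehicle. The groups of OCLN overlapped, and the 95% interval of its log2 fold change ran from -0.19 to 0.15. MARVELD2, tricellulin, which seals the points where 3 cells meet and lies 48.0 kb from OCLN on the same strand, was at 6.15, 6.15 and 6.19 FPKM with doxycycline, against 5.17, 4.65 and 6.06 FPKM with vehicle. Its doxycycline values were all above its vehicle values but the difference missed the threshold (adjusted p = 0.145), and without vehicle replicate 3 it was called higher (adjusted p = 0.0283). MARVELD3 was at 0.940 ± 0.176 FPKM with doxycycline and 1.12 ± 0.183 FPKM with vehicle. CGN, cingulin, a cytoplasmic plaque protein below the filter, was at 0.498, 0.525 and 0.652 FPKM with doxycycline and 1.07, 1.21 and 1.12 FPKM with vehicle, lower in all 3 doxycycline libraries.

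Among keratins KRT19 and KRT80 rose, KRT23 fell, and KRT8 and KRT18 did not pass the test. KRT19, the type I keratin of bile duct cells (chromosome 17, 39679869 to 39684560, minus strand), was at 131, 135 and 134 FPKM with doxycycline, against 87.5, 91.7 and 93.2 FPKM with vehicle. The mean level of KRT19 was 1.47-fold higher and the groups lay far apart (log2 fold change 0.55, SE 0.03, adjusted p = 1.08e-04). KRT18, the type I keratin of hepatocytes (chromosome 12, 53342655 to 53346685, plus strand), was at 127, 137 and 124 FPKM with doxycycline, against 124, 127 and 121 FPKM with vehicle, with overlap and an interval of the log2 fold change from -0.05 to 0.16. KRT8, its type II partner (chromosome 12, 53290971 to 53343738, minus strand), was at 91.8, 85.8 and 95.5 FPKM with doxycycline, against 97.7, 109 and 90.3 FPKM with vehicle, with overlap and an interval from -0.31 to 0.07. KRT8 and KRT18 share 1084 bases on opposite strands, and GENCODE 29 names 50 pseudogenes after KRT8, 67 after KRT18 and 5 after KRT19, so reads could be split among copies in a way these values do not show.

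KRT23, a type I keratin first known from pancreatic cancer cells, was at 66.0 ± 2.23 FPKM with doxycycline and 77.3 ± 0.707 FPKM with vehicle (log2 fold change -0.23, adjusted p = 3.38e-03). KRT80, a type II keratin of the cell edge, was at 1.78, 1.84 and 3.01 FPKM with doxycycline, against 1.07, 0.458 and 1.17 FPKM with vehicle. The values of KRT80 did not overlap but spread within both groups (log2 fold change 0.76, SE 0.21, adjusted p = 0.0401), and its call ended without any 1 of the 6 libraries (adjusted p 0.0550 to 0.0895). KRT80 passed the filter of the test only through its doxycycline values. KRT10, a type I keratin of the upper epidermis that overlaps TMEM99 on the opposite strand, was at 7.07, 6.75 and 7.19 FPKM with doxycycline, against 6.06, 6.44 and 5.69 FPKM with vehicle. It was above the vehicle range in all doxycycline libraries and missed the threshold (adjusted p = 0.0538), but was called higher without vehicle replicate 2 (adjusted p = 0.0460). KRT37, a hair keratin below the filter, was at 0.843, 0.489 and 0.765 FPKM with doxycycline and at 0.0547 and 0.0916 FPKM in vehicle replicates 1 and 3, and it was listed at 0 in vehicle replicate 2. KRT37 is in the table only through its doxycycline values.

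The summed keratin FPKM was 424, 432 and 433 with doxycycline, against 394, 411 and 389 with vehicle, higher in every doxycycline library. KRT19 made up 30.9%, 31.4% and 31.0% of it with doxycycline, against 22.2%, 22.3% and 24.0% with vehicle. KRT8, which pairs with the type I keratins, made up 19.9% to 22.1% with doxycycline and 23.2% to 26.6% with vehicle. The summed FPKM of KRT18 and KRT19 per FPKM of KRT8 was 2.81, 3.17 and 2.70 with doxycycline, against 2.17, 2.00 and 2.37 with vehicle, so the excess of these type I transcripts over KRT8 was larger in every doxycycline library. The other keratins, among them the type I KRT23, which fell, are not in this ratio.

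**Figure D4:**
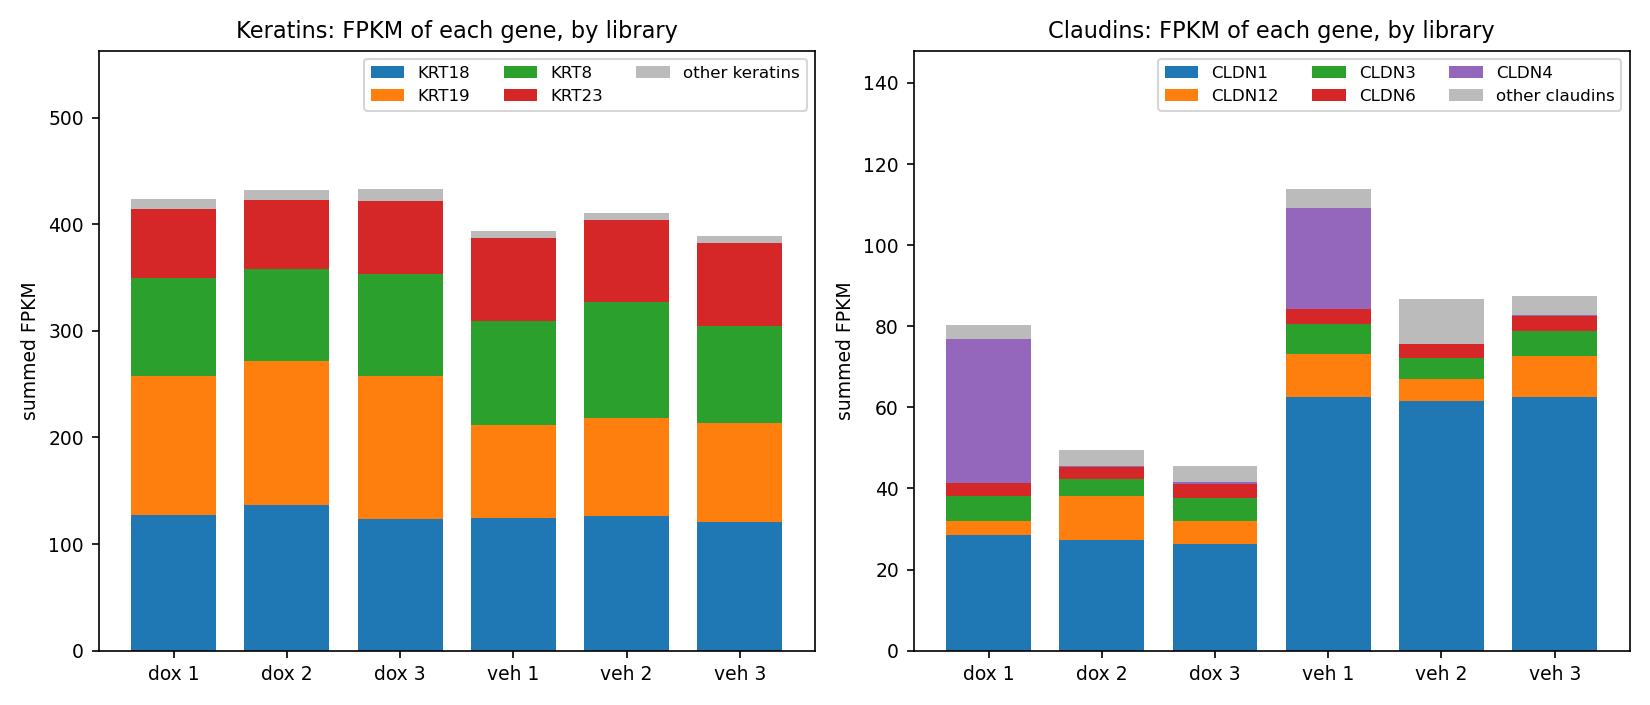
Stacked FPKM of each keratin (left) and claudin (right) by library, the 3 doxycycline libraries left of the 3 vehicle libraries, on axes that start at 0. The KRT19 share is 30.9% to 31.4% with doxycycline and 22.2% to 24.0% with vehicle, the CLDN1 block is 26.3 to 28.5 FPKM with doxycycline and 61.6 to 62.7 FPKM with vehicle, and CLDN4 is visible only in replicate 1 of each group.

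EPCAM, the adhesion molecule of epithelial and progenitor cells (chromosome 2, 47572297 to 47614740, plus strand), fell. It was at 73.5, 73.7 and 72.3 FPKM with doxycycline, against 83.8, 87.6 and 81.4 FPKM with vehicle, without overlap (log2 fold change -0.20, SE 0.03, adjusted p = 6.58e-03). ESRP2, a splicing factor of epithelial cells, was at 5.43, 5.58 and 5.997 FPKM with doxycycline, against 5.89, 6.28 and 5.54 FPKM with vehicle, with an interval of the log2 fold change from -0.20 to 0.10.

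Genes of related function that the symbol rule leaves out were read against the 28.8% of all tested genes that were called, 15.2% higher and 13.6% lower. Of 32 tested scaffold and polarity genes of adherens and tight junctions 6 rose and 5 fell (34.4% called), a share near that of all genes. AMOT, angiomotin, a scaffold of the polarity complex, was at 2.55, 2.68 and 2.64 FPKM with doxycycline, against 1.09, 0.799 and 1.10 FPKM with vehicle (log2 fold change 0.86, adjusted p = 5.17e-04). With a vehicle mean of 0.998 FPKM, AMOT passed the filter only through its doxycycline values. CGNL1, paracingulin, was at 7.69 ± 0.0878 FPKM with doxycycline and 4.60 ± 0.239 FPKM with vehicle, PARD6B, a core polarity protein, at 10.3 ± 0.272 FPKM with doxycycline and 6.61 ± 0.211 FPKM with vehicle, and ACTN1, an actin crosslinker, at 29.3 ± 0.977 FPKM with doxycycline and 19.7 ± 0.906 FPKM with vehicle. All 4 rose. The 5 that fell numbered 3 without any 1 doxycycline library and 2 without vehicle replicate 1 or 3.

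Of 10 tested desmosome, plakin and gap junction partners 3 rose and 1 fell (40% called, against 28.8% of all genes). The list held 16 genes, and only these 10 had a row. GJB1, connexin 32, the main gap junction protein of hepatocytes, fell, at 38.7, 44.4 and 45.8 FPKM with doxycycline, against 63.1, 59.1 and 59.8 FPKM with vehicle (log2 fold change -0.49, SE 0.07, adjusted p = 3.27e-03). PPL, periplakin, rose, at 4.54 ± 0.346 FPKM with doxycycline and 3.07 ± 0.173 FPKM with vehicle, and PERP, a desmosome-associated membrane protein, rose, at 66.5 ± 0.344 FPKM with doxycycline and 59.9 ± 1.45 FPKM with vehicle. KAZN, a periplakin-binding protein, was at 9.27 ± 0.565 FPKM with doxycycline and 7.84 ± 0.348 FPKM with vehicle (adjusted p = 0.0352), a call lost when doxycycline replicate 1 (adjusted p = 0.0913) or 2 (0.0870) or vehicle replicate 1 (0.0915) or 2 (0.0997) was left out.

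Of 14 tested regulators of the epithelial-mesenchymal transition and mesenchymal genes 6 rose and 2 fell (57.1% called, against 28.8% of all genes). The list held 29 genes, and only these 14 had a row. SNAI2, TWIST1, TWIST2, ZEB2, MMP2, MMP9 and COL1A1 were among those without one, so the share does not cover the whole list. TAGLN, transgelin, an actin-binding protein of smooth muscle, was at 6.69, 7.50 and 8.02 FPKM with doxycycline, against 2.56, 3.14 and 2.45 FPKM with vehicle (log2 fold change 1.18, SE 0.09, adjusted p = 3.58e-04). SPARC, a matrix glycoprotein, rose, at 28.0 ± 0.698 FPKM with doxycycline and 15.0 ± 0.218 FPKM with vehicle, and TGFB1, a growth factor that can drive the transition, rose, at 27.0 ± 1.31 FPKM with doxycycline and 22.2 ± 0.445 FPKM with vehicle. S100A4, a calcium-binding protein, was at 175, 306 and 293 FPKM with doxycycline, against 155, 146 and 156 FPKM with vehicle (adjusted p = 0.0496), a call lost when doxycycline replicate 2 (adjusted p = 0.125) or 3 (0.132) or any 1 vehicle replicate (0.112, 0.125 and 0.108) was left out. The 2 that fell were FN1, fibronectin, at 270.4 ± 13.0 FPKM with doxycycline and 302 ± 6.40 FPKM with vehicle (adjusted p = 0.0296), and ACTA2, smooth muscle actin, at 16.4 ± 0.780 FPKM with doxycycline and 18.6 ± 0.668 FPKM with vehicle (adjusted p = 0.0393). SNAI1, a repressor of CDH1, named here after its values were seen, as are FN1, ACTA2 and ZEB1, was at 3.50, 3.45 and 3.96 FPKM with doxycycline, against 4.06, 4.83 and 4.76 FPKM with vehicle, and did not pass (adjusted p = 0.0541), with adjusted p from 0.0296 to 0.144 over the alternatives. ZEB1, another such repressor, was at 2.98, 2.16 and 3.15 FPKM with doxycycline, against 1.17, 1.41 and 2.64 FPKM with vehicle, with overlap (adjusted p = 0.145, and 0.0228 without vehicle replicate 3). The 6 that rose numbered 3 when doxycycline replicate 2 or 3 or vehicle replicate 1 or 2 was left out, and the 2 that fell numbered 1 when replicate 1 of either group was left out and 0 when any other library was.

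Of 9 tested epithelial transcription factors, proteases and membrane proteins 3 rose and 2 fell (55.6% called, against 28.8% of all genes). The list held 20 genes, of which 12 had a row and 9 passed the filter. SPINT1, an inhibitor of membrane serine proteases, rose, at 6.69, 5.58 and 5.50 FPKM with doxycycline, against 2.50, 2.44 and 2.56 FPKM with vehicle (log2 fold change 0.98, SE 0.08, adjusted p = 3.20e-04). KLF5, a transcription factor of gut and gland epithelia, rose, at 15.0 ± 0.411 FPKM with doxycycline and 8.95 ± 0.489 FPKM with vehicle, and PRSS8, prostasin, rose, at 2.10 ± 0.195 FPKM with doxycycline and 1.11 ± 0.252 FPKM with vehicle. MAL2, a protein of transport to the apical membrane in hepatocytes, fell, at 10.8 ± 0.168 FPKM with doxycycline and 15.6 ± 0.558 FPKM with vehicle. The 2 that fell numbered 1 without doxycycline replicate 2 or 3 or vehicle replicate 2 or 3.

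**Figure D5:**
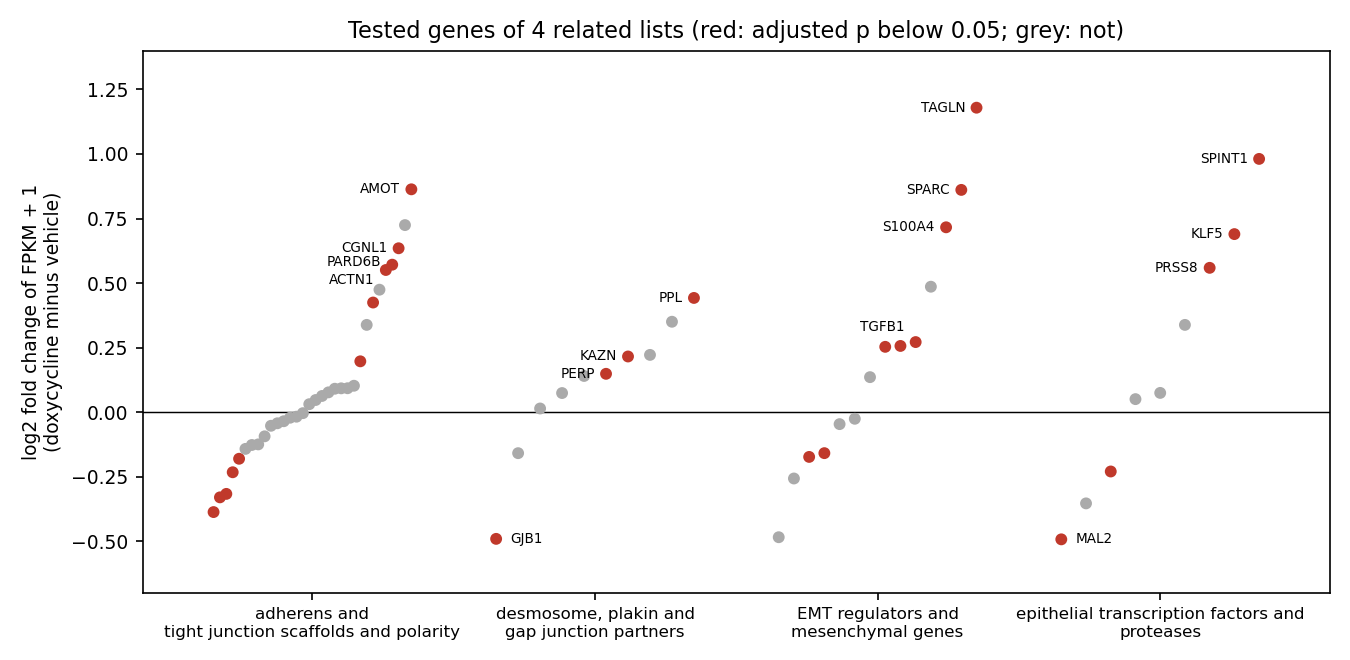
Log2 fold change of FPKM + 1, doxycycline minus vehicle (vertical axis), of the tested genes of 4 related lists, ordered within each list; red points passed an adjusted p of 0.05 and grey points did not. Up to 4 called genes with the largest absolute change per list are named, from TAGLN at 1.18 to MAL2 and GJB1 at -0.49.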

How the data were processed

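Messenger RNA of HepG2-hCAR cells was sequenced from 6 libraries, 3 with doxycycline and 3 with vehicle, grouped by their labels. The deposited values are FPKM per gene, 1 column per library; the submitters' processing notes name FastQC, cutadapt, HISAT2, StringTie and the build GRCh37, with no versions. Per the labels' protocols the library kit keeps strand, and whether the quantification used strand is not given in the sources used here. All 11461 entries are protein-coding. The result of 1 gene of the set is not reported here, although counts and sums over the set include it. Where entries shared a symbol (10 entries), the one with the higher mean was kept.

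From these values log2(FPKM + 1) was fitted with limma 3.58.1 in R 4.3.3 (group as the only term, variance trend) over the 10469 genes that averaged 1 FPKM or more, two-sided, with Benjamini-Hochberg adjustment over all of them. Fold values are ratios of mean FPKM. The log2 scale of FPKM + 1 understates the change of low genes. Depth is unknown, so no counting interval is given. The procedure was tested on simulated data. Values in every library are given for the 14 called genes of the set with the largest absolute log2 fold change and for CDH1, CDH2, CTNNB1, TJP1, OCLN, CLDN1, DSP, JUP, KRT8, KRT18, KRT19, EPCAM and VIM (not analysed here), and up to 4 called genes of each related list are named; other genes given by library were chosen after their values were seen. The set and the lists were chosen with earlier results of these data known. Alternatives were a pseudocount of 0.1, no filter, a minimum mean of 5 FPKM, median-ratio scaling, quantile normalization, no variance trend, the replicate number as a block and leaving out each library. Figures were drawn with matplotlib 3.10.9.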

Additional observations from a re-analysis of the deposited data

How the results depend on the processing

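Over 13 alternatives the called junction and keratin genes numbered 5 to 8 higher and 11 to 16 lower, against 6 and 14, and without 1 library 5 to 6 higher and 11 to 13 lower. The same 20 genes stayed called with median-ratio scaling, quantile normalization, no filter and no variance trend. With no filter CDH24 was also called higher and CGN lower (adjusted p = 1.54e-03 and 2.82e-03). The counts with no filter also include KRT37 and CDH16, which are in the table only through the group where they are high, so their calls support nothing. KRT80 lost its call with a pseudocount of 0.1 (adjusted p = 0.0502). The share called among all genes was 22.1% to 34.1%.

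Same-numbered libraries did not deviate together over genes (correlation 0.015, -0.032 and 0.092 for numbers 1, 2 and 3), and nothing in the labels ties the numbers to a culture or day, so the block was not used in the main result. Single genes did follow the numbers: CLDN4 was high in replicate 1 of both groups, and EVPL was high and VCL low in replicate 3 of both. With the replicate number as a block 22.4% of all genes were called (1231 higher and 1112 lower), CTNND1 lost its call (adjusted p = 0.0576), VCL and EVPL were called higher (adjusted p = 7.01e-03 and 0.0332, against 0.175 and 0.575 without the block), scaffold and polarity genes called lower numbered 3, mesenchymal genes called higher 3 and lower 0, and epithelial regulators called lower 1.

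A minimum mean of 5 FPKM left 3 scaffold and polarity genes called lower (5 in the main result) and 1 epithelial regulator called in each direction; no variance trend left 1 mesenchymal gene called lower. Without 1 library, scaffold and polarity genes called lower numbered 2 to 4, mesenchymal genes called higher 3 to 5 and lower 0 to 1, and epithelial regulators called lower 1 to 2. Genes that missed the threshold changed sign without 1 library: CLDN4 ranged from -1.29 to 1.80 on the log2 scale, CLDN11 from -0.96 to 0.10, CLDN15 from -0.00656 to 0.18, CTNNA1 from -0.0613 to 0.0276, CTNNBL1 from -0.0801 to 0.0357 and OCLN from -0.0758 to 0.0315. Fewer libraries or genes entered these fits; the cause of other shifts was not tested. Depth is unknown, so no floor could be set for CLDN4, KRT37 or CDH16.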
